A study of Mus musculus with 6 samples.

Results

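Immediate early and activity-regulated genes are described here in the hippocampus of 2 inbred mouse strains, C57BL/6 and DBA/2. The 36 genes were taken by symbol from a list of transcription factors, phosphatases, kinases, growth regulators and synaptic proteins, and all 36 were found among the 51912 genes of the deposited count table. All 36 also passed the filter on low counts, which left 17517 genes. RNA was sequenced from 3 libraries per strain. Both groups are hippocampus, and the labels distinguish them by strain. They name no treatment, sex, age or substrain, and do not say whether a library holds 1 animal or several. The C57BL/6 libraries 1 and 3 also differ from the other 4 in holding far more counts of Xist, an RNA made from the inactive X chromosome of females, so calls that were lost without them are marked (their values stand in the last paragraph). Separate animals are not stated, so the p-values reflect library-to-library spread, part of which may be technical. The series asks how the strains differ in hippocampal gene expression.

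Immediate early genes are transcribed within minutes of a stimulus without new protein synthesis. In neurons, calcium entry through synaptic receptors and channels activates kinases that act on factors already bound to DNA, such as CREB and SRF, and these start transcription of genes such as Fos, Egr1, Arc and Npas4. Many of the proteins are transcription factors or feedback inhibitors of the same kinases. In the hippocampus these transcripts are widely used as marks of recent neuronal activity and are studied in memory formation, and several are also induced in glia and vessels.

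In DBA/2, 20 of the 36 genes fell and 1 rose (quasi-likelihood F test of edgeR, adjusted p under 0.05 after Benjamini-Hochberg correction over all genes tested). Over all genes tested, 13.7% were called lower in DBA/2, 9.09% higher and 22.8% in either direction, against 55.6% of these genes lower. The 36 genes were chosen with earlier results of these data known, so this contrast is not independent of their choice. Their median log2 fold change, DBA/2 over C57BL/6, was -0.41, and that of all genes tested was 0.00. The largest falls were in Egr2, Fos, Ier2, Ptgs2, Sik1, Egr4 and Trib1, and the one rise was in Jund. The falls were uneven: Fos in DBA/2 stood at 44.6% of its C57BL/6 level, whereas Npas4 stood at 94.3%, Ier5 at 105% and Jun at 107%, and these last 3 were not called. Whether an individual cell held less of these transcripts or fewer cells held them cannot be told apart in whole-tissue RNA.

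**Figure D1:**
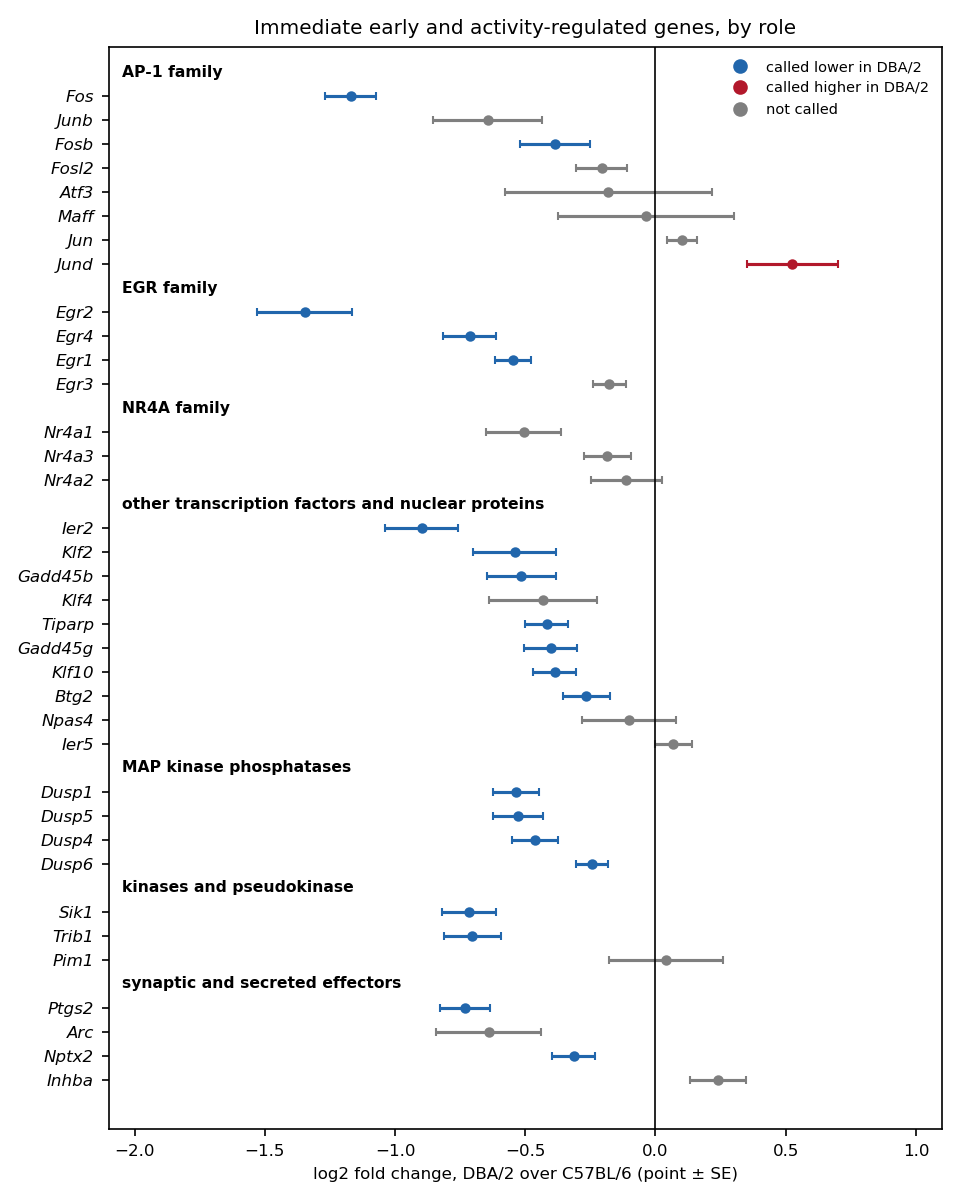
Log2 fold change, DBA/2 over C57BL/6, of each of the 36 genes with its standard error, grouped by role (3 libraries per strain). Blue points were called lower, the red point (Jund) higher, and grey points were not called; Egr2 and Fos lie farthest to the left, at -1.35 and -1.17.

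The DNA in front of several of these genes shows the elements through which neuronal signals are known to act, and 6 stretches are given here. Of the genes behind them, Fos, Egr2, Dusp1 and Dusp5 were called lower, and Nr4a1 and Nr4a2 were not called. Nr4a1 was nonetheless at a log2 fold change of -0.51, close to Dusp1 (-0.54) and Dusp5 (-0.53). The sequences are from RefSeq (GRCm38.p6), end before a transcription start listed there and read 5′ to 3′ on the strand of the gene. Egr2 has 5 listed promoters, and the stretch with the most bases in motif matches was taken. For Egr2, Dusp1 and Nr4a1 the stretch lies inside the span of the gene in GENCODE M21, in front of an internal start. Capitals mark matches on either strand to 4 motifs: the CREB element TGACGTCA, its shorter core TGACG (which lies within the full element and reads CGTCA on the other strand), the EGR motif GCGNGGGCG, and the CArG box bound by SRF. The Fos stretch is chr12:85473740-85473889 on the plus strand, that of Egr2 chr10:67537719-67537868 on the plus strand, and that of Dusp1 chr17:26508520-26508622 on the minus strand. Dusp5 is given at chr19:53528995-53529108 on the plus strand, Nr4a1 at chr15:101266696-101266845 on the plus strand, and Nr4a2 at chr2:57124004-57124153 on the minus strand.
Fos: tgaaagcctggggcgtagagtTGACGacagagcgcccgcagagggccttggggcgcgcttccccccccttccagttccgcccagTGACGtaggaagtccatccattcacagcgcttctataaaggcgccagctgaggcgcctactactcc
Egr2: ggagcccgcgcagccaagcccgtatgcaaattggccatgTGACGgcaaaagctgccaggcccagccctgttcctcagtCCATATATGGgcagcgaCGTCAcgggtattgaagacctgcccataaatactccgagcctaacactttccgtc
Dusp1: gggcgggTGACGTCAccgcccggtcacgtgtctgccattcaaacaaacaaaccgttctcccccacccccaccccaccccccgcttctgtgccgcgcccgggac
Dusp5: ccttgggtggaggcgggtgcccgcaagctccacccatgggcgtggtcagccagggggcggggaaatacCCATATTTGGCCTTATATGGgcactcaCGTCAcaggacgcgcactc
Nr4a1: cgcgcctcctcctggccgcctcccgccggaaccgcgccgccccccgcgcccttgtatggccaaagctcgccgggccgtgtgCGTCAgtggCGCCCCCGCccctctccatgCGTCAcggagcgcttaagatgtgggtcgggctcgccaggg
Nr4a2: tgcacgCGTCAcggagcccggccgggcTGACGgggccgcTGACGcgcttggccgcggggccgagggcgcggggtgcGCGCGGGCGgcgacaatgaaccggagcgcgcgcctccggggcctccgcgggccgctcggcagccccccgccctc

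Promoters of 27 of the 36 genes were matched by symbol in RefSeq, and the 250 bases before each start were searched. The TGACG core was present in 16 of the 27 genes (59.3%), against 29.05% of 11959 tested genes with a promoter and 17.77% of all 32851 promoters. The full TGACGTCA element was present in Btg2, Dusp1 and Maff (11.1%, against 2.96% of tested genes and 1.55% of all promoters), and the EGR motif in 9 genes (33.3%, against 10.07% and 4.7%). A CArG box was found in Egr2 and Dusp5 (7.4%, against 1.42% and 1.47%), and the AP-1 motif TGANTCA in none of the 27 windows (against 5.46% and 6.75%). The TGACG core lay in 8 of 13 genes called lower and in 8 of 14 others, and the EGR motif in 4 of 13 and 5 of 14, while the full element lay in 2 of 13 and 1 of 14 and the CArG box in 2 of 13 and 0 of 14. Elements farther than 250 bases from a start, and those of members without a matched promoter, were not searched. A gene not named here may therefore still have such an element. These matches are descriptions of the reference sequence, with no test, and they do not show binding.

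In the AP-1 family, Fos-type proteins pair with Jun-type proteins on DNA. Of its 8 genes, 2 fell, 1 rose and 5 were not called, beside 13.7% of all genes tested called lower and 9.09% higher. Of the 3 calls, that of Fos was kept in all 16 alternatives, that of Fosb in 6 of 16 and that of Jund in 10 of 15. Fos, on chromosome 12 (GRCm38, 85473890 to 85477273), had 32.9, 34.0 and 34.8 CPM (counts scaled to the library total with TMM factors) in C57BL/6 replicates 1 to 3 and 16.8, 12.1 and 16.5 CPM in DBA/2. All DBA/2 libraries lay far below all C57BL/6 libraries, and the log2 fold change was -1.17 ± 0.10 (SE, adjusted p = 6.79e-09). Fosb, its near relative, had 12.3, 15.1 and 14.4 CPM in C57BL/6 and 8.92, 9.89 and 13.4 CPM in DBA/2. DBA/2 replicate 3 lay above C57BL/6 replicate 1, making Fosb the 1 called gene whose libraries overlapped, and its log2 fold change of -0.38 ± 0.13 (SE) had an adjusted p of 0.0448. That call was kept in 6 of 16 alternatives. It was lost in each of 4 fits that left out 1 library (C57BL/6 replicate 2 or 3, DBA/2 replicate 1 or 2), with adjusted p up to 0.201, and without the C57BL/6 libraries with Xist counts. It was also lost with the DESeq2 Wald test (0.0909), limma on FPKM (0.177), library size alone as the scaling (0.0579) and a minimum mean of 5 CPM (0.0529).

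Among the Jun-type genes, Junb had 76.9, 90.7 and 84.1 CPM in C57BL/6 and 48.3, 43.5 and 70.0 CPM in DBA/2. The strains did not overlap, but DBA/2 replicate 3 stood well above the other two, and the log2 fold change of -0.64 ± 0.21 (SE) was not called (adjusted p = 0.112). Without DBA/2 replicate 3 it was -0.87 and was called (adjusted p = 8.25e-09). Its locus on chromosome 8 (84974484 to 84978718) overlaps Prdx2, a peroxiredoxin gene on the other strand at a mean of 132 CPM. The strand setting of the counting is not given in the sources used here, so whether reads of the pair were kept apart is not known.

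Jun, the most abundant Jun-type gene, had 126, 121 and 117 CPM in C57BL/6 and 123, 125 and 142 CPM in DBA/2, with overlapping libraries and a log2 fold change of 0.10 (95% interval -0.01 to 0.22, not called). Jund, often described as the Jun gene least dependent on stimulation, had 3.55, 4.16 and 3.89 CPM in C57BL/6 and 5.11, 6.60 and 4.90 CPM in DBA/2. All DBA/2 libraries were higher, and the log2 fold change was 0.53 ± 0.17 (SE, adjusted p = 0.0305). This single rise rests on 57 to 112 counts a library. It was lost without C57BL/6 replicate 1 (adjusted p = 0.113), C57BL/6 replicate 3 (0.0729) or DBA/2 replicate 2 (0.193), with the DESeq2 Wald test (0.0896), and without the C57BL/6 libraries with Xist counts (0.412).

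The other AP-1 and related genes were not called. Fosl2, which encodes the Fos-related protein Fra-2, had a log2 fold change of -0.21 and was called without C57BL/6 replicate 1 (-0.31, adjusted p = 0.00564). Atf3, a stress-induced factor, and Maff, a small Maf protein, stayed at 0.432 to 1.82 CPM over the 6 libraries, too low for a direction.

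In the EGR family of zinc finger transcription factors, 3 of 4 genes fell and the strains' libraries were apart in all 4. Egr2 had 6.32, 6.85 and 7.73 CPM in C57BL/6 and 2.11, 2.94 and 3.24 CPM in DBA/2, so that its mean in DBA/2 was 39.7% of that in C57BL/6 (log2 fold change -1.35 ± 0.18, SE, adjusted p = 4.36e-06). Egr4 had 35.5, 48.1 and 43.5 CPM against 25.3, 23.8 and 28.5 CPM, a log2 fold change of -0.71 ± 0.10 (SE, adjusted p = 9.99e-05). Both were higher in every C57BL/6 library than in any DBA/2 library. Egr1, also known as Zif268 and the most abundant of the family in CPM, had 172, 186 and 179 CPM in C57BL/6 and 123, 108 and 137 CPM in DBA/2, with a log2 fold change of -0.55 ± 0.07 (SE, adjusted p = 3.25e-05). Egr3 had 43.8, 45.9 and 44.3 CPM in C57BL/6 and 37.8, 41.7 and 38.9 CPM in DBA/2. Its libraries were apart by a small margin, and its log2 fold change of -0.18 ± 0.06 (SE) had an adjusted p of 0.0529, which became 0.0284 without DBA/2 replicate 2.

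None of the 3 NR4A genes, orphan nuclear receptors induced by neuronal activity and other stimuli, was called in edgeR's quasi-likelihood test. At an unadjusted p under 0.05 the count was 1, and the DESeq2 Wald test and limma-voom called 1 each. That gene was Nr4a1 (Nur77), which had 88.5, 108 and 97.5 CPM in C57BL/6 and 64.9, 59.4 and 82.8 CPM in DBA/2. The 2 sets of libraries stayed apart, and its log2 fold change was -0.51 ± 0.14 (SE, adjusted p = 0.0589). As with Junb, the highest DBA/2 library was replicate 3. Without it the adjusted p for Nr4a1 was 1.92e-06, without C57BL/6 replicate 1 it was 0.0391, and over all 16 alternatives it ran from 2.32e-12 to 0.183, passing in 9. Nr4a3 had 101, 132 and 130 CPM in C57BL/6 and 105, 108 and 106 CPM in DBA/2. C57BL/6 replicate 1 lay below every DBA/2 library and the other two above them, and without replicate 1 Nr4a3 was called (log2 fold change -0.30, adjusted p = 0.000543, against -0.19 with all libraries). Nr4a2 (Nurr1), with a log2 fold change of -0.11 (95% interval -0.44 to 0.22), averaged 76.0 ± 7.88 CPM in C57BL/6 against 70.4 ± 11.1 CPM in DBA/2 (SD, n = 3 each).

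**Figure D2:**
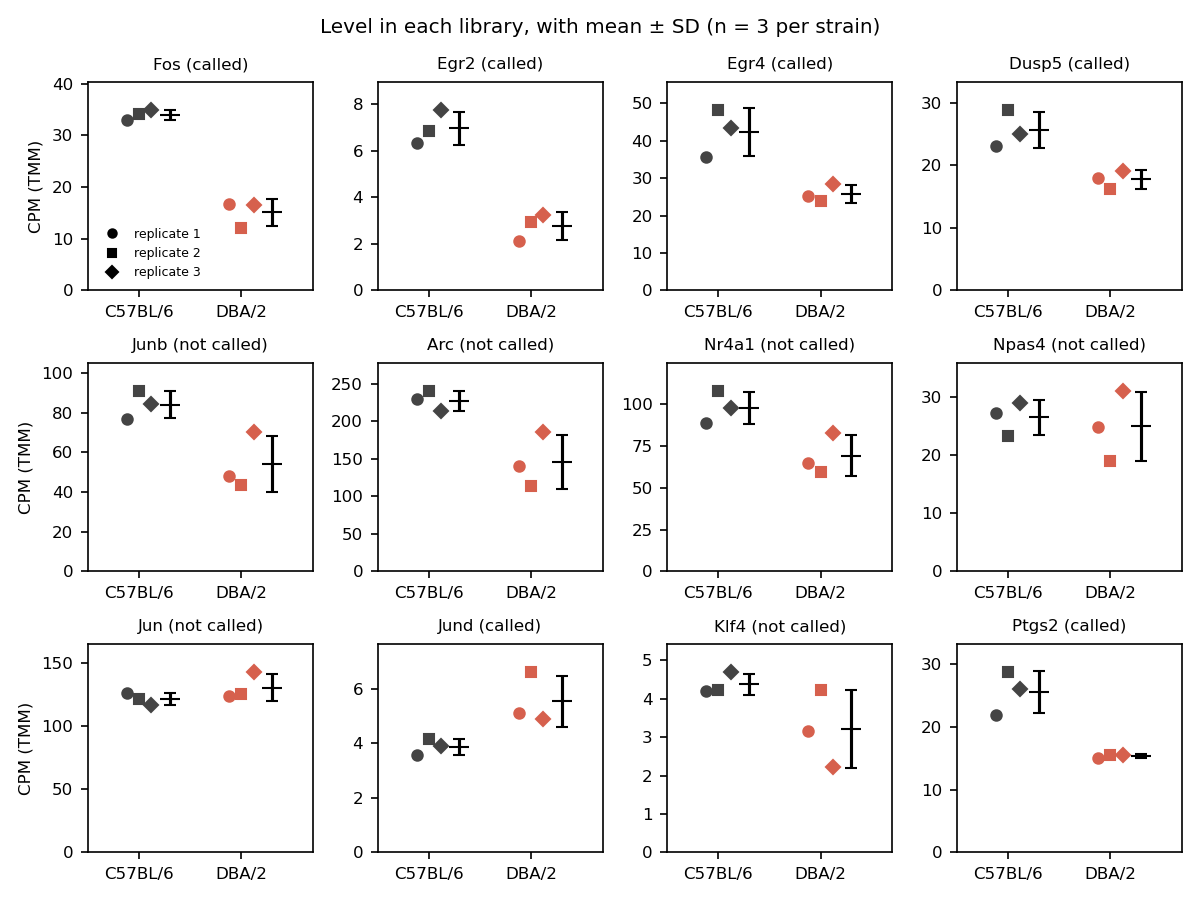
CPM of 12 of the genes in each library, with replicates marked by symbol and the mean ± SD of each strain beside them (n = 3, all vertical axes start at 0). Fos, Egr2 and Ptgs2 show a clear gap between strains, whereas for Junb, Arc and Nr4a1 the DBA/2 replicate 3 point lies between the other DBA/2 libraries and C57BL/6.

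Of 10 other transcription factors and nuclear proteins, 7 fell, none rose and 3 were not called (at an unadjusted p under 0.05, 8 were lower and none higher; DESeq2 called 6 lower and limma-voom 7). Ier2, a nuclear protein of the earliest response and a gene with 1 exon, had 8.73, 9.33 and 9.03 CPM in C57BL/6 and 5.34, 4.53 and 4.61 CPM in DBA/2. The spread within each strain was small beside this difference, and the log2 fold change was -0.90 ± 0.14 (SE, adjusted p = 3.42e-05). Klf10, a Krüppel-like factor induced by TGF-beta, had 23.8, 26.6 and 27.8 CPM against 20.4, 19.8 and 19.6 CPM (log2 fold change -0.39, adjusted p = 0.00126). Tiparp, an ADP-ribosyltransferase that restrains aryl hydrocarbon receptor signalling, had 26.5, 29.3 and 29.7 CPM against 22.0, 22.4 and 19.5 CPM (log2 fold change -0.42, adjusted p = 0.0005).

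The growth arrest genes Gadd45b and Gadd45g, which act in stress signalling and have been linked to activity-dependent DNA demethylation, both fell. Gadd45b had 11.3, 13.1 and 12.8 CPM in C57BL/6 and 8.81, 6.95 and 10.4 CPM in DBA/2 (log2 fold change -0.52, adjusted p = 0.00604, and 0.0535 without DBA/2 replicate 2). Gadd45g had 16.4, 17.2 and 17.1 CPM against 14.0, 11.5 and 12.9 CPM (log2 fold change -0.40, adjusted p = 0.0051, and 0.09 without the C57BL/6 libraries with Xist counts). In both genes DBA/2 replicate 2 was the lowest library. Btg2, an antiproliferative gene, had 26.2, 25.1 and 22.5 CPM against 21.8, 18.2 and 21.2 CPM (log2 fold change -0.27, adjusted p = 0.0367). That small difference was not called without C57BL/6 replicate 1 (adjusted p = 0.171), C57BL/6 replicate 2 (0.10) or DBA/2 replicate 2 (0.183). It was also lost without the C57BL/6 libraries with Xist counts (0.194), with the DESeq2 Wald test (0.1004), with limma on log2(FPKM + 1) (0.0806) and with library size alone (0.0553), and was kept in 8 of 16 alternatives.

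Klf2, a Krüppel-like factor well known from endothelium, had 7.22, 7.58 and 10.5 CPM in C57BL/6 and 5.81, 6.54 and 5.12 CPM in DBA/2 (log2 fold change -0.54, adjusted p = 0.0154). C57BL/6 replicate 3 was its highest library, and without it the adjusted p was 0.194; without DBA/2 replicate 3 it was 0.0646. It was 0.381 without the C57BL/6 libraries with Xist counts and 0.0578 with limma on log2(FPKM + 1). Klf4, also expressed in endothelium, had 4.21, 4.23 and 4.69 CPM against 3.17, 4.24 and 2.23 CPM and was called only without DBA/2 replicate 2 (adjusted p = 0.0345, against 0.145 with all libraries). The summed level of 12 vessel markers was 206, 194 and 279 CPM in C57BL/6 and 277, 312 and 252 CPM in DBA/2, so the libraries highest within each strain for Klf2 and Klf4 were also highest for vessel markers. Between strains, 2 of the 12 vessel markers were called higher in DBA/2 and none lower. Over all genes tested, 9.09% were called higher and 13.7% lower. None of the markers was lower at an unadjusted p under 0.05 in edgeR, or with DESeq2 or limma-voom. Their median log2 fold change was 0.33, and their summed levels overlapped between strains. The count of 2 higher became 1 without C57BL/6 replicate 2 or any 1 DBA/2 library, and 8 without C57BL/6 replicate 3. The part of vessel content in the values of Klf2 and Klf4 was not tested. Npas4, a neuron-specific factor induced by calcium, averaged 26.4 ± 2.97 CPM in C57BL/6 against 24.9 ± 5.94 CPM in DBA/2 (SD, n = 3 each; log2 fold change -0.10, 95% interval -0.54 to 0.33). Ier5, another immediate early nuclear protein, had 46.1 ± 0.726 and 48.5 ± 4.95 CPM (SD, n = 3 each).

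All 4 MAP kinase phosphatases fell, and all 4 were apart between strains. These dual-specificity phosphatases are induced by MAP kinase signalling and switch it off. Dusp1, a nuclear phosphatase for several MAP kinases, had 29.4, 29.3 and 26.1 CPM in C57BL/6 and 21.2, 17.3 and 19.8 CPM in DBA/2 (log2 fold change -0.54 ± 0.09, SE, adjusted p = 6.42e-05). Dusp5, a nuclear phosphatase for ERK, had 23.1, 28.8 and 25.0 CPM against 18.0, 16.2 and 19.1 CPM (log2 fold change -0.53 ± 0.09, SE, adjusted p = 0.000168). The falls of Dusp1 and Dusp5 were alike in size. Dusp4, also nuclear, had 23.9, 26.3 and 22.4 CPM against 17.9, 17.5 and 17.1 CPM (log2 fold change -0.46, adjusted p = 0.000323). Dusp6, the cytoplasmic ERK phosphatase and the most abundant of the group both in CPM and per length, had 64.8, 66.7 and 67.6 CPM against 54.1, 54.2 and 60.2 CPM. Its log2 fold change of -0.24 ± 0.06 (SE, adjusted p = 0.00408) was the smallest of the 4, and was not called without the C57BL/6 libraries with Xist counts (0.107). Under every fit that left out 1 library, all 4 kept their call.

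Of the 2 kinases and the pseudokinase, Sik1 and Trib1 fell and Pim1 was not called. Sik1, a salt-inducible kinase that acts back on the CREB coactivators, had 20.7, 19.9 and 24.4 CPM in C57BL/6 and 14.3, 11.8 and 13.7 CPM in DBA/2 (log2 fold change -0.72 ± 0.10, SE, adjusted p = 1.21e-05). Trib1, a scaffold for a ubiquitin ligase, had 14.1, 15.5 and 14.6 CPM against 9.34, 8.83 and 8.93 CPM (log2 fold change -0.70 ± 0.11, SE, adjusted p = 2.62e-05). Neither gene had overlapping libraries, and Trib1 varied little within either strain. Pim1, a kinase induced by cytokines, had 3.38 ± 0.658 and 3.48 ± 0.939 CPM (SD, n = 3 each).

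The genes with synaptic or secreted products divided. Ptgs2, the inducible prostaglandin synthase COX-2, had 21.9, 28.6 and 26.0 CPM in C57BL/6 and 15.0, 15.5 and 15.5 CPM in DBA/2, a fall to 60.1% of the C57BL/6 mean (log2 fold change -0.73 ± 0.10, SE, adjusted p = 3.48e-06). Nptx2, a secreted pentraxin that clusters AMPA receptors, had 27.1, 28.5 and 32.8 CPM against 24.6, 23.1 and 23.6 CPM (log2 fold change -0.31, adjusted p = 0.00691, 0.0979 without C57BL/6 replicate 3 and 0.22 without the C57BL/6 libraries with Xist counts). In both genes the DBA/2 libraries lay close together and the C57BL/6 libraries were spread.

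Arc, whose protein removes AMPA receptors from synapses, had 229, 240 and 213 CPM in C57BL/6 and 140, 114 and 185 CPM in DBA/2. Every DBA/2 library was lower, the mean in DBA/2 was 64.3% of that in C57BL/6, and the log2 fold change was -0.64 ± 0.20 (SE). It was nonetheless not called (adjusted p = 0.109), since the DBA/2 libraries themselves differed widely. Without DBA/2 replicate 3 it was -0.84 (adjusted p = 3.83e-06), the DESeq2 Wald test on all libraries gave 0.0179, and over the 16 alternatives the adjusted p reached 0.489. Inhba, a subunit of activin, averaged 11.7 ± 0.663 CPM in C57BL/6 against 13.7 ± 0.895 CPM in DBA/2 (SD, n = 3 each); all DBA/2 libraries were higher, and the log2 fold change of 0.24 was not called (adjusted p = 0.119).

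Counted by overlap alone, the libraries were apart and lower in DBA/2 for 23 of the 36 genes, against 20.1% of all genes tested, and apart and higher for 2 (Jund and Inhba), against 16.7%. The 23 comprise 19 called genes and the uncalled Arc, Junb, Nr4a1 and Egr3. This count too is not independent of the choice of genes, which was made with earlier results known. With 3 libraries per strain an exact permutation test of a single gene cannot give a two-sided p below 0.1.

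**Figure D3:**
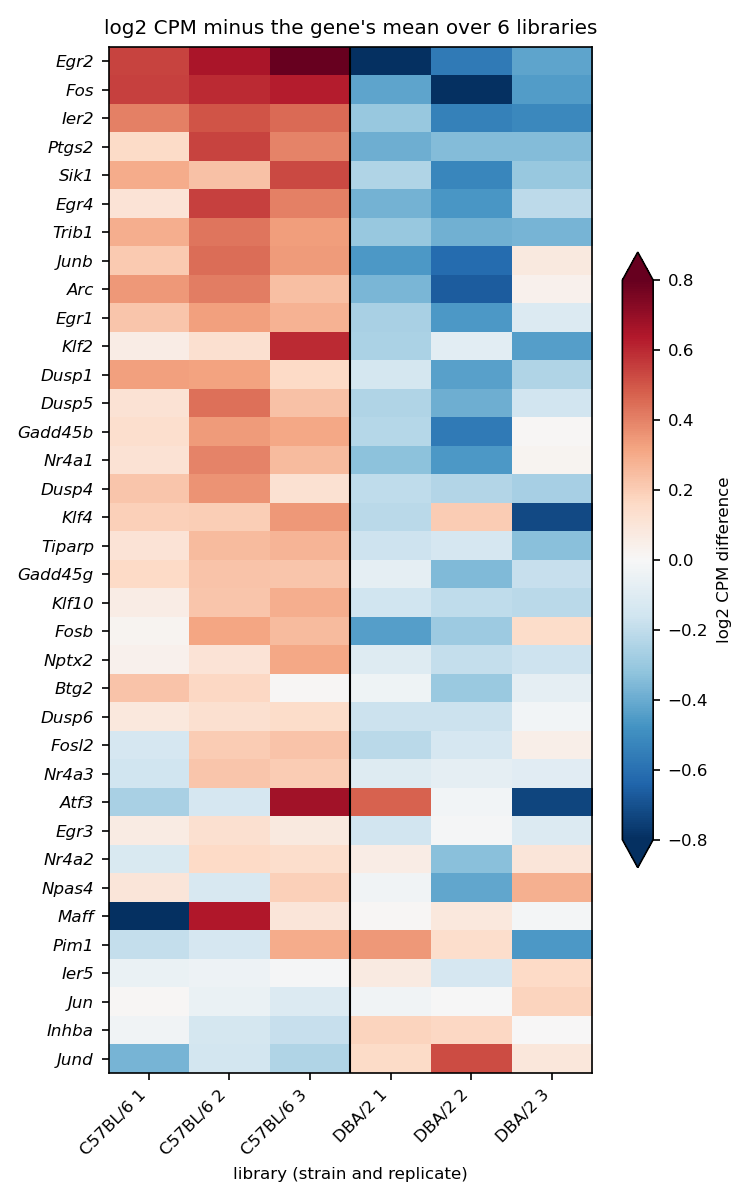
Log2 CPM of each gene in each library minus that gene's mean over the 6 libraries, with genes ordered by log2 fold change (red above, blue below, colours end at ±0.8). The upper rows are red in C57BL/6 and blue in DBA/2; DBA/2 replicate 3 is pale for Arc, Junb, Nr4a1 and Gadd45b.

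Levels within a strain also differed between libraries, and not in the same way for all genes. In C57BL/6, replicate 1 was the lowest library for 28 of the 36 genes, and replicate 2 was the highest for 18. In DBA/2, replicate 2 was the lowest for 18 and replicate 3 the highest for 16. On the log2 scale, DBA/2 replicate 3 stood above its strain's mean by 0.41 for Junb, 0.37 for Arc, 0.34 for Fosb, 0.34 for Npas4 and 0.28 for Nr4a1. In DBA/2 replicate 2, Npas4 was at -0.36 and Arc at -0.33 from that mean. Other genes went the opposite way: Klf4 was at 0.45 in replicate 2 and -0.48 in replicate 3, and Pim1 at -0.47 in replicate 3. The median standard deviation of log2 CPM within a strain was 0.15 for the 36 genes and 0.11 for all genes tested. It was 0.27 for Npas4, 0.27 for Junb and 0.26 for Arc, and 0.05 for Trib1 and 0.06 for Egr3.

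Levels between genes were compared as the deposited FPKM, which are per kilobase of exon. Arc was the most abundant, with a mean of 73.6 ± 4.17 FPKM in C57BL/6 and 48.1 ± 11.7 FPKM in DBA/2 (SD, n = 3 each). In C57BL/6 it was followed by Egr1 (39.5 FPKM), Nr4a1 (39.2), Jun (37.6) and Junb (36.1), which differed by no more than the spread between libraries, and then by Egr3 (31.2). In DBA/2 the second place went to Jun (41.1 ± 3.16 FPKM, SD, n = 3), followed by Nr4a1 (28.1), Egr3 (28.1), Egr1 (27.5) and Junb (23.6), whose spreads overlap. Fos, at 14.3 ± 0.441 FPKM in C57BL/6 and 6.47 ± 1.11 FPKM in DBA/2 (SD, n = 3 each), was above Npas4 (7.99 FPKM) in the former and below it (7.65 FPKM) in the latter, where their spreads overlap. The lowest levels were those of Atf3 and Maff, under 1 FPKM in every library. The 36 genes together took 0.146% to 0.162% of all counts in C57BL/6 libraries and 0.111% to 0.134% in DBA/2 libraries.

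**Figure D4:**
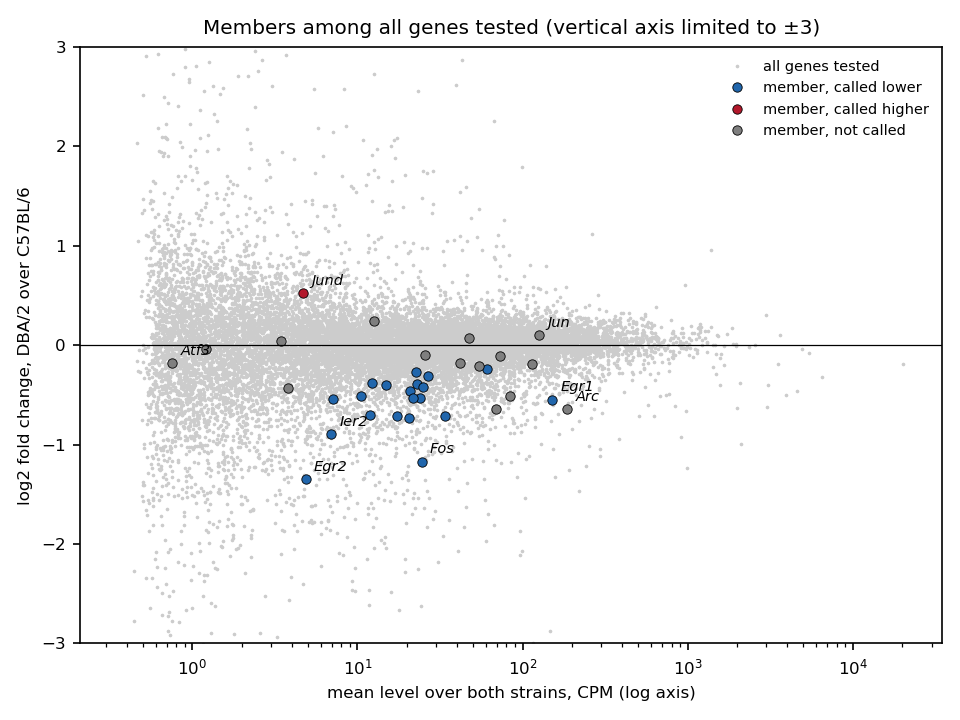
Log2 fold change against the mean CPM over both strains (log axis) for all genes tested (grey) and for the 36 genes (coloured by call). The called falls lie across levels from Egr2, at a few CPM, to Egr1, above 100; 177 of the grey genes lie beyond the vertical limits of ±3.

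The 36 genes are short. Their median span in GENCODE M21 is 6338 bases, against 25434 bases for the 14587 protein-coding genes tested, and 5 have 1 exon in their longest transcript. Genes called lower had a median span of 7035 bases and the others 5687. No other transcript of the annotation shared 200 aligned bases at 95% identity with any of them, leaving aside overlapping genes. Besides Junb, Dusp1 overlaps an expressed gene on the other strand (Ergic1, 103 CPM, within a GENCODE span of 56539 bases for Dusp1), and Inhba, Jun and Tiparp overlap antisense transcripts at 1.47 to 11.2 CPM. Jund, the only called rise, overlaps an antisense gene (Gm11175) that was not among the genes tested, and so do Atf3, Dusp5 and Pim1 with other such genes. The part of these overlaps in the counts was not tested.

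Other genes known from the same response were counted in the same way. The counts of this list and of the lists below stand beside 13.7% of all genes tested called lower and 9.09% called higher. Of 24 other rapid response genes, 6 fell and 1 rose, with a median log2 fold change of -0.14. Apold1, an endothelial early response gene, fell from 5.99 ± 1.34 to 1.97 ± 0.399 CPM (SD, n = 3 each; log2 fold change -1.60, adjusted p = 4.43e-06), the largest change of these 24 genes. Arl4d, a small GTPase, fell by 0.60 on the log2 scale, Bhlhe40, a repressor that also acts in the clock, by 0.54, and Csrnp1, a nuclear protein, by 0.45. The 1 that rose was Plk2, a polo-like kinase of activated synapses, from 176 ± 11.6 to 217 ± 12.8 CPM (SD, n = 3 each). It was not called without the 2 C57BL/6 libraries that hold Xist counts, and 2 genes of the list were called higher without DBA/2 replicate 2. Homer1, a synaptic scaffold with an activity-induced short form, had 154 ± 18.8 and 163 ± 10.7 CPM over all its forms (SD, n = 3 each), and the forms are not separated in a count per gene.

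Late response genes follow the first factors and act at synapses or are secreted. Of 18, 4 fell and 1 rose, with a median log2 fold change of -0.16. The falls were those of Adcyap1, the neuropeptide PACAP (-0.52), Bdnf, the neurotrophin (-0.23, adjusted p = 0.0259), Rgs4 (-0.20), a brake on G protein signalling, and Scg2 (-0.14), a granin. For Bdnf the libraries overlapped, with 38.0 CPM in DBA/2 replicate 1 and 37.5 CPM in C57BL/6 replicate 1. Nptx1, a neuronal pentraxin, rose by 0.20. Crh, the stress peptide corticotropin-releasing hormone (log2 fold change -0.65, adjusted p = 0.122), Sv2c, a synaptic vesicle protein (-0.59, adjusted p = 0.16), and Acan, the perineuronal net proteoglycan aggrecan (-0.43, adjusted p = 0.0709), were not called, although every DBA/2 library was lower for each of them. Crh rests on only 15 to 40 counts a library. The count of 4 falls became 0 without C57BL/6 replicate 3, 1 without DBA/2 replicate 3 and 1 with the DESeq2 Wald test; the count of rises was 2 without DBA/2 replicate 1.

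Upstream, among 27 kinases, coactivators and DNA-binding factors that carry the signal to these genes, 5 rose and 2 fell, with a median log2 fold change of 0.07. Rps6ka2, a ribosomal S6 kinase downstream of ERK, fell from 60.8 ± 2.28 to 39.2 ± 3.08 CPM (SD, n = 3 each; log2 fold change -0.64, adjusted p = 7.97e-08). Hdac4, a histone deacetylase that represses MEF2 targets, rose by 0.40, Crebbp, the CREB-binding coactivator CBP, by 0.28, and Ep300, its paralogue, by 0.22. Crtc1, a coactivator of CREB, had a log2 fold change of -0.18 (adjusted p = 0.00368). The count of 5 rises was 3 without C57BL/6 replicate 1 and 8 without DBA/2 replicate 2. Srf, Creb1 and Elk1 were not called.

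Some of these genes also respond to glucocorticoids, and of 15 other glucocorticoid response genes 7 fell and none rose in edgeR (1 was higher at an unadjusted p under 0.05, and none with DESeq2 or limma-voom). Their median log2 fold change was -0.24. Mt2, a metallothionein, fell from 81.3 ± 13.8 to 49.9 ± 6.12 CPM, and Klf9, a Krüppel-like factor, from 163 ± 5.13 to 116 ± 3.34 CPM (SD, n = 3 each). Cdkn1a, a cell cycle inhibitor, had a log2 fold change of -0.50 and Ddit4, an inhibitor of mTOR signalling, one of -0.46. Per1, a clock gene, had one of -0.41. It was counted in both this list and the rapid response list, as were Sgk1 and Errfi1 (both -0.09, not called). Hif3a, Fkbp5 and Zbtb16 had positive log2 fold changes (0.28, 0.15 and 0.09) and were not called.

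**Figure D5:**
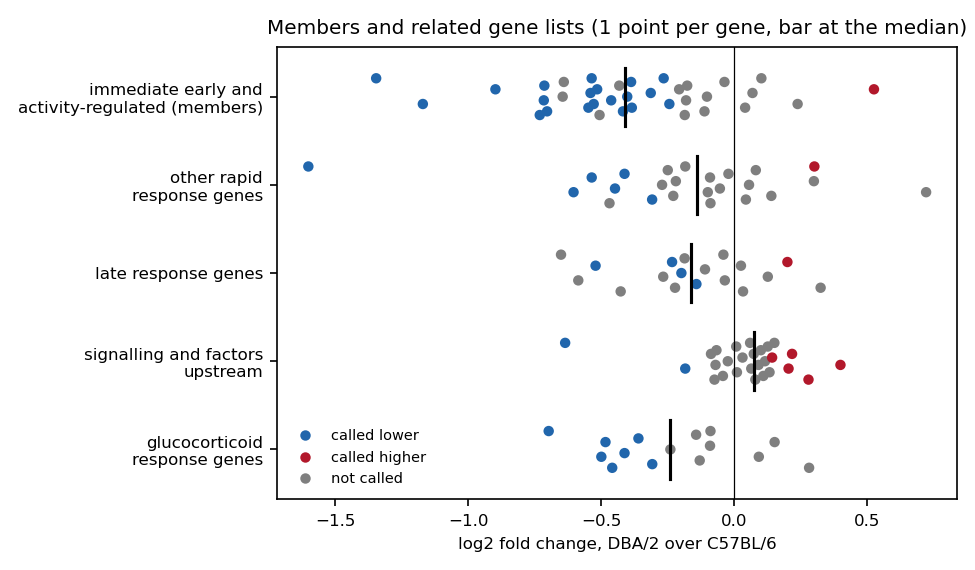
Log2 fold changes of the 36 genes and of the 4 related lists, 1 point per gene tested, with a bar at each median. The bars lie at -0.41 for the 36 genes, -0.14 for other rapid response genes, -0.16 for late response genes, 0.07 for upstream signalling and -0.24 for glucocorticoid response genes.

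Libraries held 13867280 to 20185683 counts in C57BL/6 and 13839366 to 16912153 in DBA/2, and at these depths a gene with 0 counts is limited to 3 counts, or 0.150 to 0.219 CPM (counting error only). Markers of hippocampal principal neurons were present in every library (15 of 15 tested; 5 higher and 3 lower in DBA/2; summed level 4987 to 5255 CPM in C57BL/6 and 5404 to 5681 CPM in DBA/2). Without C57BL/6 replicate 1 or DBA/2 replicate 3 the 5 became 3, and without DBA/2 replicate 1 it became 2. Of 16 markers of thalamus and habenula, regions that adjoin the hippocampus, 7 were lower in DBA/2 (11 without C57BL/6 replicate 1 or DBA/2 replicate 1; 12 with DESeq2), with none at 0 in any library, and their summed level was 472 to 686 CPM in C57BL/6 and 227 to 321 CPM in DBA/2. Among 8 neocortex markers, 1 was higher in DBA/2 and none was lower. The neocortex markers summed to 202 to 217 CPM in C57BL/6 and 227 to 241 CPM in DBA/2. Microglial markers were lower in 9 of 14 genes (451 to 489 against 340 to 368 CPM summed), astrocyte markers in 6 of 10 with 1 higher (4991 to 5269 against 5091 to 5656 CPM), and myelin markers in 2 of 10 (6962 to 8702 against 4677 to 6316 CPM; 7 of 10 with DESeq2, and 4, 0 and 8 of 10 without C57BL/6 replicate 1, DBA/2 replicate 2 and DBA/2 replicate 3). Choroid plexus markers summed to 699 to 1548 CPM in C57BL/6 and 1267 to 2785 CPM in DBA/2, with 0 of 10 called in edgeR, at an unadjusted p under 0.05, with DESeq2 or with limma-voom, and 1 called higher without DBA/2 replicate 3. Mitochondrially encoded RNAs took 5.66% to 5.83% of counts in C57BL/6 and 4.74% to 4.98% in DBA/2. The part of these differences in the falls described above was not tested. Xist, the RNA of the inactive X chromosome, had 3214 and 6995 counts in C57BL/6 replicates 1 and 3 and 1 to 12 counts in the other libraries, while the Y-linked Ddx3y had 837 to 1323 counts in all 6. Without those 2 libraries, which leaves 1 in C57BL/6, 15 of the 36 genes were called lower and none higher.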

How the data were processed

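Hippocampal RNA of 3 C57BL/6 and 3 DBA/2 libraries was grouped by the strain label. The submitters' processing notes name GRCm38 and the tools Cufflinks 2.2.1, HISAT2 2.0.1 and Trimmomatic 0.30, without their roles. For the counting program and its strand setting, nothing is given in the labels. The authors deposited raw counts per gene and FPKM, which equalled the counts per exonic length and library total within 0.005. A further 12 columns of that table, which could be tied to no label, were left out.

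Counts were tested with edgeR 4.0.16 (quasi-likelihood, robust, TMM, filterByExpr) in R 4.3.3, with Benjamini-Hochberg adjustment over 17517 genes. A gene was called under 0.05. The SE is the log2 fold change over the root of F. On simulated counts for this comparison (17285 genes), 58% of 100 genes changed 1.5-fold and 79% of 100 changed 2-fold were recovered, and 4.86% of 144 calls were false. Only those genes were changed, far fewer than the 4000 called in the data, so the shares recovered may differ from those in the data. The alternatives included DESeq2 1.42.0, limma 3.58.1 (voom, and log2(FPKM + 1) or log2(FPKM + 0.1)), other scalings and filters, the replicate number as a block and libraries left out.

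Values in every library are given for called genes and the 6 most abundant uncalled ones by FPKM, and up to 4 called genes of largest change are named per related list. The values of Klf4 in every library, and the genes Plk2, Per1, Scg2, Crtc1, Crh, Sv2c, Acan, Homer1, Srf, Creb1, Elk1, Ddx3y and Xist were added after values were seen. Sgk1, Errfi1, Hif3a, Fkbp5 and Zbtb16 were likewise added after values were seen. The members and lists were chosen with earlier results of these data known. Gene positions are from GENCODE M21 (GRCm38). Copies were sought with megablast.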

Additional observations from a re-analysis of the deposited data

How the results depend on the processing

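Of the 21 called genes among the 36, 13 were called under every alternative that tested them and 15 kept their call without each library in turn, over 16 alternatives. The other 8 were Fosb, Jund, Klf2, Btg2, Gadd45b, Gadd45g, Dusp6 and Nptx2; Gadd45g and Dusp6 lost their call only without the C57BL/6 libraries that hold Xist counts. The number of genes called lower, 20 with the settings of the report, was 15 without those Xist libraries and 17 to 22 without each library in turn. It was 18 with library size alone as the scaling, 21 with DESeq2 and limma-voom, and 23 with no filter on low counts. The number called higher, 1, was 0 with a mean of at least 5 CPM (which leaves Jund untested), with the DESeq2 Wald test and without the Xist libraries, and 0 to 1 without each library in turn. The median log2 fold change was -0.33 on log2(FPKM + 1), which compresses low levels. Over all genes, 2012 in place of 4000 were called without the Xist libraries, where fewer libraries are compared and the lone C57BL/6 library is assumed to vary like DBA/2.

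Of the uncalled genes, 5 turned in direction. Maff was at 0.0753 with limma-voom, 0.0019 on log2(FPKM + 1), 0.0535 on log2(FPKM + 0.1) and from -0.33 to 0.29 without each library in turn. Atf3 was at 0.15 and Npas4 at 0.10 without the Xist libraries, and without each library in turn Atf3 ran from -0.50 to 0.21, Npas4 from -0.27 to 0.0628, Pim1 from -0.13 to 0.23 and Nr4a2 from -0.1942 to 0.0164. The cause was not tested.

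Libraries of the strains share replicate numbers, and same-numbered libraries had correlations of 0.143, -0.106 and 0.000821 of their deviations from the strain means, so the numbers were not taken as pairs. With the replicate block 22 genes were called lower, 1 higher and 3827 in all; Fosl2 and Nr4a1 were gained. Genes near 1 CPM, such as Atf3 and Maff, rest on 6 to 25 counts a library, where only large changes could be detected.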
